A study of Mus musculus with 6 samples.

Results

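Transcription factors of the granulocyte and monocyte lineages were followed through Evi1-driven leukemia in mice: Spi1, Cebpa, Cebpb, Cebpd, Cebpe, Gfi1, Irf8 and Klf4. The members were chosen by name and are 8 of the 38924 rows of the expression table, and all 8 reached the level needed for testing. Leukemia was represented by 2 libraries from mice whose marrow carried Evi1 with GFP, taken 6 months after transplantation. Preleukemia was represented by 2 libraries with the same Evi1-GFP construct at 4 weeks, and mock by 2 libraries with GFP alone at 4 weeks. Every library came from C57BL/6 recipients of transduced marrow, from bone marrow cells sorted as GFP-positive, c-kit-positive and negative for lineage markers. No GFP-only group at 6 months was used here, so leukemia and time since transplantation cannot be told apart. Whether the 2 libraries of each group stem from different mice is not stated in the labels, so p-values describe the spread among libraries, part of which may be technical.

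Spi1, also called PU.1, is an Ets family factor required for both granulocytes and monocytes. Cebpa directs stem cells and progenitors to the granulocyte and monocyte fate, Cebpe acts later, when secondary granules form, and Cebpb supports granulocyte output under stress. Gfi1 is a zinc finger repressor needed for neutrophils, whereas Irf8 and Klf4 favour monocytes. Evi1, encoded at the Mecom locus, is a zinc finger factor of stem cells whose high expression marks aggressive myeloid leukemia.

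Promoter sequence was matched in RefSeq (GRCm38.p6) for 5 of the members, as 7 windows of the 250 bases before a transcription start. The windows of Gfi1 and Irf8 are shown because these factors stand for opposite fates, neutrophil and monocyte, and because a searched motif was found only in windows of these genes. Capitals mark the motif in each, read 5′ to 3′ on the strand of the gene. The Gfi1 window lies at chr5:107725806-107726055 on the minus strand and holds a match to the C/EBP motif TTGCNNAA, 143 bases before the start. That start is shared by 2 of the 4 GENCODE transcripts of Gfi1 and 1 starts further upstream, so the motif lies within the outer bounds of the gene, in an intron. The Irf8 window lies at chr8:120736108-120736357 on the plus strand and holds the core of the Gfi1 motif, AAATCA, on its reverse strand, 175 bases before the start.
Gfi1: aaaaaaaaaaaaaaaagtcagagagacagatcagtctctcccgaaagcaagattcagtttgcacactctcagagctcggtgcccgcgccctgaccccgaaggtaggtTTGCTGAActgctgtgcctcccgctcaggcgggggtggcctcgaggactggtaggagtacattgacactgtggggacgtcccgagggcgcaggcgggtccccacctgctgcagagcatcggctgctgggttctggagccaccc
Irf8: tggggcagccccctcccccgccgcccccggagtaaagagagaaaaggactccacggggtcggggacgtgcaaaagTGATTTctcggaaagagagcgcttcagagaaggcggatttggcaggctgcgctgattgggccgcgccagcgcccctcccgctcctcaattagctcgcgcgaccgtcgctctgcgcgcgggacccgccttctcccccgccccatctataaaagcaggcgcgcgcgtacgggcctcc
A further Irf8 window, wholly inside the gene, also held AAATCA, 226 bases before its start. The other Gfi1 window and the windows of Cebpa, Cebpb and Klf4 held none of the 5 motifs searched on both strands. Of 32851 promoter windows of this length, 9.56% held TTGCNNAA, 12.4% held AAATCA, 23.3% held the Spi1 motif GAGGAA, 7.13% held the interferon regulatory factor motif GAAANNGAA and 6.55% held GATAAG, a motif of the GATA type bound by Evi1. A match describes the letters and not binding.

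Library totals, worked out from the spacing of low values, ran between 16922991 and 21641739 a library, and values are RPKM, reads scaled by transcript length and library total. Mecom stood at 61.7 and 71.5 RPKM in leukemia, at 78.0 and 80.1 RPKM in preleukemia and at 0.774 and 0.805 RPKM in mock. Kit, the receptor used in the sort, lay between 46.8 and 69.2 RPKM in every library. It fell in leukemia against mock, at 49.3 and 46.8 RPKM against 69.2 and 57.7 RPKM. Of 5 stem and progenitor markers, Kit, Hlf and Meis1 fell in leukemia against mock, and Cd34 fell in preleukemia against mock. In leukemia against preleukemia Hlf and Meis1 fell and Cd34 rose. The median absolute log2 difference within a pair was 0.108 in leukemia, 0.112 in preleukemia and 0.216 in mock. Markers of maturing neutrophils, summed over 8 genes, reached 415 and 699 RPKM in leukemia, 3800 and 8056 RPKM in preleukemia and 11.1 and 15.8 RPKM in mock, and 5 of the 8 rose in preleukemia against mock. S100a8 and S100a9 were the largest parts of this sum. S100a8 had 227 and 373 RPKM in leukemia and 2179 and 4117 RPKM in preleukemia. S100a9 had 173 and 284 RPKM in leukemia and 1474 and 3049 RPKM in preleukemia. In leukemia against mock 3 of the 8 rose, namely Cxcr2, S100a8 and S100a9. In such bulk samples, fewer cells of a type and less RNA per cell cannot be told apart.

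In preleukemia against mock, 4 of the 8 factors rose and none fell. Rises at this threshold, a limma adjusted p under 0.05, were found in 13.5% of the 10958 genes tested and falls in 6.02%. In leukemia against mock 1 factor rose and 1 fell, where 12.1% of all genes rose and 13.5% fell. In leukemia against preleukemia none rose and 3 fell, where 5.27% of all genes rose and 13% fell. The median log2 fold change of the 8 factors was 0.68, -0.05 and -1.02 in these comparisons, against 0.05, -0.04 and -0.09 over all genes tested. The comparisons share libraries, so they are not independent of each other. Of all calls, 69.2%, 47.3% and 28.8% were rises, against 52.9%, 53.4% and 50.8% after quantile normalization and 58.6%, 52.8% and 44.4% after median-of-ratios scaling.

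**Figure D1:**
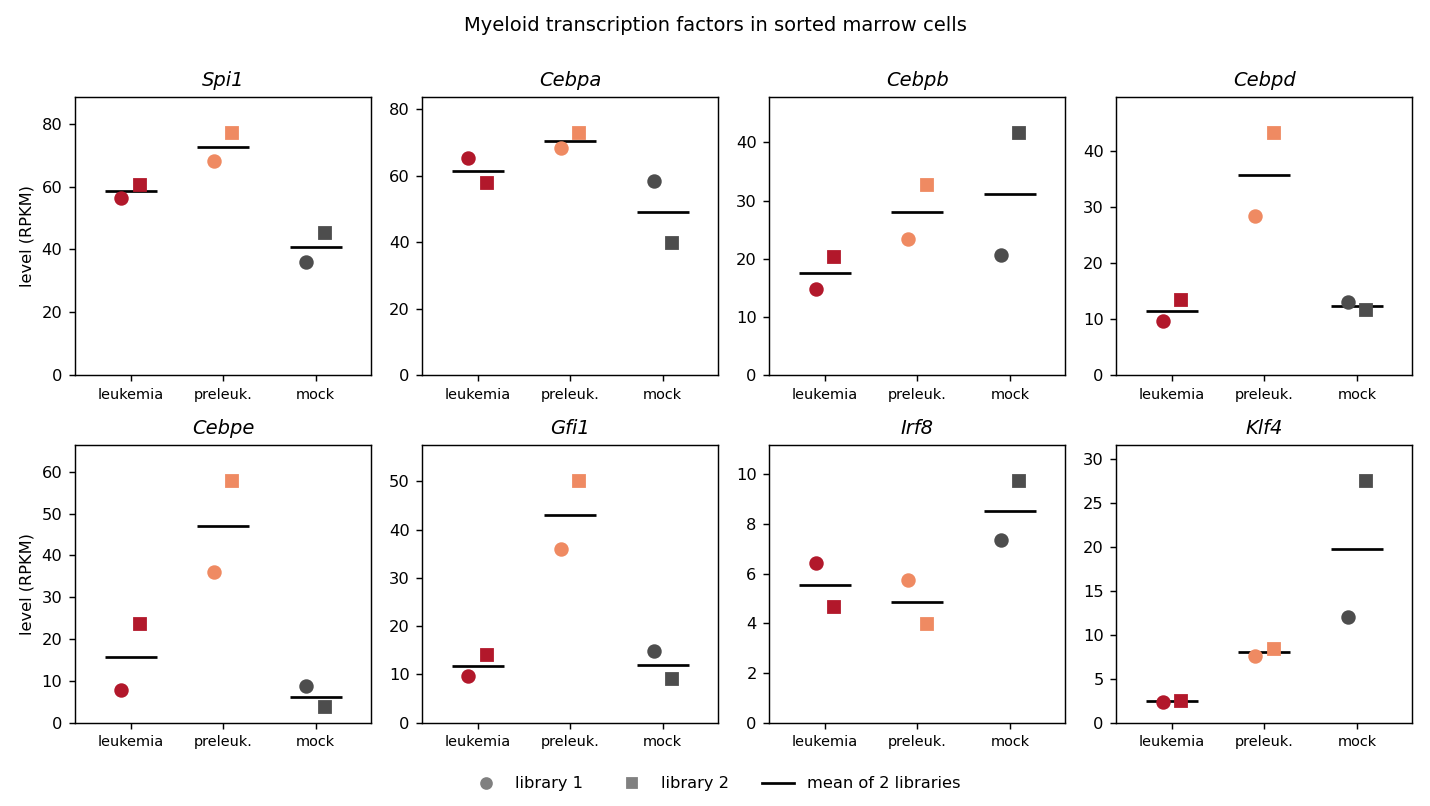
RPKM of each of the 8 factors in the leukemia, preleukemia and mock libraries, with library 1 as a circle, library 2 as a square and the mean as a bar. Cebpe, Gfi1 and Cebpd stood highest in both preleukemia libraries, and Klf4 stood lowest in both leukemia libraries.

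The granulocyte factors Cebpe, Gfi1 and Cebpd were highest in preleukemia. Cebpe, the factor of secondary granule formation (ENSMUSG00000052435, chr14:54710360-54712174, minus strand), had 7.81 and 23.5 RPKM in leukemia, 36.1 and 57.9 RPKM in preleukemia and 8.63 and 3.80 RPKM in mock. Both preleukemia libraries lay above all others, while leukemia overlapped mock and its libraries differed 3.01-fold from each other. Cebpe rose 7.56-fold in mean RPKM in preleukemia against mock (log2 fold change 2.78, SE 0.53, adjusted p = 0.0153). The leukemia means were 3.0-fold below preleukemia without passing the test (log2 fold change -1.67, 95% interval -2.93 to -0.41, adjusted p = 0.0739). Against mock, leukemia Cebpe did not pass (log2 fold change 1.11, 95% interval -0.15 to 2.37, adjusted p = 0.166).

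Gfi1, a repressor needed for neutrophil development (ENSMUSG00000029275, chr5:107716657-107726036, minus strand), had 9.59 and 14.0 RPKM in leukemia, 36.0 and 50.1 RPKM in preleukemia and 14.9 and 8.98 RPKM in mock. Leukemia and mock overlapped and preleukemia stood apart from both. Gfi1 rose 3.61-fold in preleukemia against mock (log2 1.79, SE 0.28, adjusted p = 0.00774) and fell 3.64-fold in leukemia against preleukemia (log2 -1.78, SE 0.28, adjusted p = 0.00843). Leukemia against mock gave a log2 fold change of 0.00 (95% interval -0.66 to 0.67, adjusted p = 0.992).

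Cebpd (ENSMUSG00000071637, chr16:15887286-15891031, plus strand), a C/EBP factor induced as granulocytes mature, had 9.56 and 13.4 RPKM in leukemia, 28.3 and 43.1 RPKM in preleukemia and 12.98 and 11.6 RPKM in mock. Its pattern followed that of Gfi1, with preleukemia apart and leukemia overlapping mock. Cebpd rose 2.91-fold in preleukemia against mock (log2 1.44, SE 0.23, adjusted p = 0.00795) and fell 3.11-fold in leukemia against preleukemia (log2 -1.54, SE 0.23, adjusted p = 0.00686). In the GENCODE M21 model of 3746 exon bases, Cebpd shares 562 bases with Spidr on the other strand, at 9.51 to 10.9 RPKM. Reads of such pairs cannot be told apart without strand. The Cebpd values gave whole reads at a length of 1180 bases, shorter than that model. Whether the shorter length overlaps Spidr was not tested. Over the 6 libraries Cebpd and Gfi1 moved together, with a Pearson r of 0.983 of log2 levels, given as a description of points that share their libraries.

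The calls of these 3 factors in preleukemia against mock were lost without preleukemia library 2, where the log2 fold changes were 2.45 for Cebpe (adjusted p = 0.112), 1.55 for Gfi1 (adjusted p = 0.0667) and 1.14 for Cebpd (adjusted p = 0.0516). Cebpe also missed the threshold without preleukemia library 1 (adjusted p = 0.0552) and without mock library 2 (adjusted p = 0.0555), and with no filter on low values (adjusted p = 0.0650). In leukemia against preleukemia the fall of Gfi1 was lost without leukemia library 1 (log2 -1.53, adjusted p = 0.0596) or preleukemia library 2 (log2 -1.55, adjusted p = 0.0723), and that of Cebpd without leukemia library 1 (log2 -1.32, adjusted p = 0.0501). Cebpe in that comparison passed without leukemia library 2 (log2 -2.41, adjusted p = 0.0327) and with voom (adjusted p = 0.0439), whereas without leukemia library 1 it was -0.93 (adjusted p = 0.303). Eosinophil markers summed to 3.62 and 170 RPKM in leukemia, 84.3 and 85.2 RPKM in preleukemia and 43.1 and 27.7 RPKM in mock, so the leukemia library with more Cebpe also held more of these. The part that other cell types played in these differences was not tested.

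**Figure D2:**
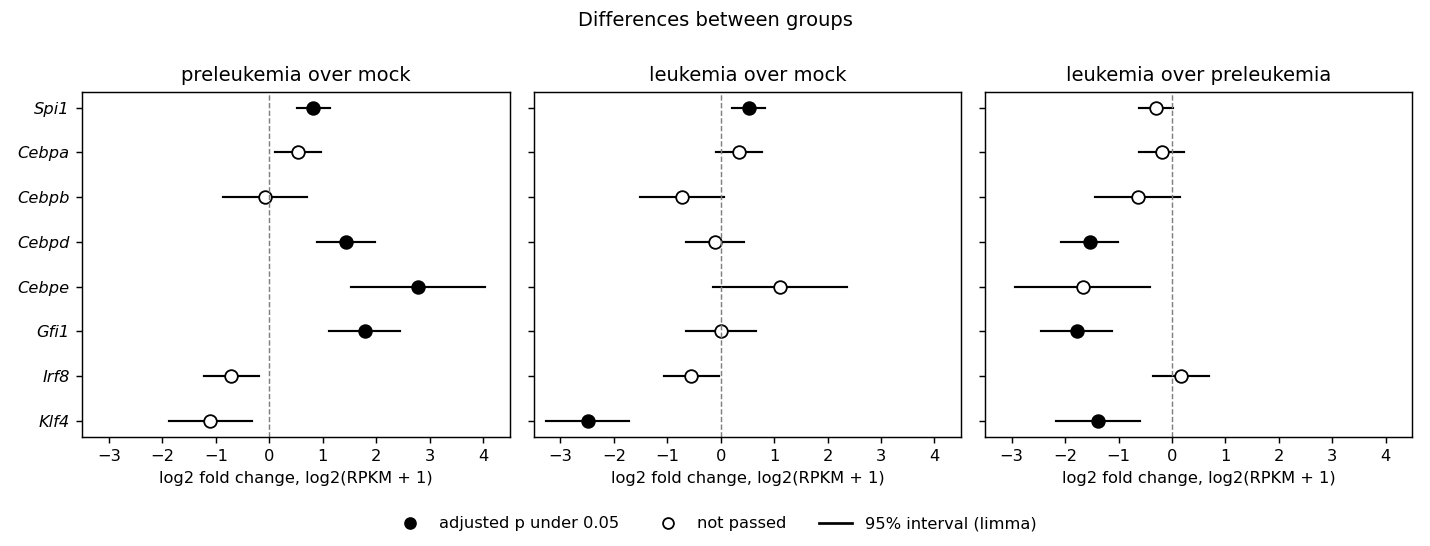
Log2 fold change of each factor with its 95% interval from limma in the 3 comparisons, on the log2(RPKM + 1) scale. Filled symbols mark an adjusted p under 0.05, which was reached by 4 factors in preleukemia against mock, 2 in leukemia against mock and 3 in leukemia against preleukemia.

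The general myeloid factors Spi1 and Cebpa had the highest mean levels of the 8 in every group. Spi1 (ENSMUSG00000002111, chr2:91082390-91115756, plus strand) had 56.5 and 60.5 RPKM in leukemia, 68.2 and 76.9 RPKM in preleukemia and 36.1 and 45.3 RPKM in mock. The 3 groups did not overlap. Spi1 rose 1.78-fold in preleukemia against mock (log2 0.83, SE 0.13, adjusted p = 0.00869) and 1.44-fold in leukemia against mock (log2 0.52, SE 0.13, adjusted p = 0.0311). Leukemia against preleukemia did not pass (log2 -0.30, 95% interval -0.62 to 0.01, adjusted p = 0.161), and passed without mock library 1 (adjusted p = 0.0492) or mock library 2 (adjusted p = 0.0488). The preleukemia call was lost without preleukemia library 2 (log2 0.74, adjusted p = 0.0837), and the leukemia call was lost under 7 of 15 alternatives, namely with no filter, with only the 4 libraries compared (adjusted p = 0.0603) and without any 1 library other than mock library 2, with an adjusted p of up to 0.168.

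Cebpa (ENSMUSG00000034957, chr7:35119293-35121928, plus strand), an intronless gene like Cebpb and Cebpd, had 65.3 and 57.9 RPKM in leukemia, 68.3 and 72.7 RPKM in preleukemia and 58.4 and 39.6 RPKM in mock. Preleukemia lay above both other groups, and leukemia overlapped mock. It passed the test in none of the comparisons: the log2 fold change was 0.54 in preleukemia against mock (95% interval 0.11 to 0.97, adjusted p = 0.0790), 0.35 in leukemia against mock (adjusted p = 0.198) and -0.19 in leukemia against preleukemia (adjusted p = 0.499). Without mock library 1 it passed in preleukemia against mock (log2 0.82, adjusted p = 0.00525) and in leukemia against mock (log2 0.62, adjusted p = 0.0104). Without mock library 2 the log2 fold change against mock was 0.27 for preleukemia (adjusted p = 0.142) and 0.07 for leukemia (adjusted p = 0.631), so the size turned on which mock library was kept.

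Cebpb (ENSMUSG00000056501, chr2:167688915-167690418, plus strand), the C/EBP factor of stress granulopoiesis, had 14.7 and 20.4 RPKM in leukemia, 23.3 and 32.7 RPKM in preleukemia and 20.6 and 41.6 RPKM in mock. The mock libraries differed 2.02-fold and enclosed both preleukemia values, while leukemia lay below all of them. No comparison passed: the log2 fold change was -0.08 in preleukemia against mock (95% interval -0.87 to 0.71, adjusted p = 0.884), -0.73 in leukemia against mock (-1.52 to 0.07, adjusted p = 0.152) and -0.64 in leukemia against preleukemia (adjusted p = 0.225). Without mock library 1 leukemia against mock passed (log2 -1.21, adjusted p = 0.0175), and without mock library 2 it was -0.24 (adjusted p = 0.504). Tmem189 on the other strand shares 20.7% of its exon bases and stood at 6.80 to 9.88 RPKM.

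The monocyte factors Klf4 and Irf8 were highest in mock. Klf4 (ENSMUSG00000003032, chr4:55527143-55532466, minus strand), a zinc finger factor of monocyte differentiation, had 2.37 and 2.49 RPKM in leukemia, 7.56 and 8.41 RPKM in preleukemia and 12.05 and 27.5 RPKM in mock. The groups did not overlap, and the mock libraries differed 2.28-fold. Klf4 fell 8.14-fold in mean RPKM in leukemia against mock (log2 -2.49, SE 0.33, adjusted p = 0.00324), a call that held under all 15 alternatives with log2 fold changes between -3.06 and -1.93. It also fell 3.29-fold in leukemia against preleukemia (log2 -1.39, SE 0.33, adjusted p = 0.0309), but that call was lost under 6 of 15 alternatives, with an adjusted p of 0.0680 with voom, 0.101 with no filter and 0.116 to 0.170 without any 1 leukemia or preleukemia library. Preleukemia against mock did not pass (log2 -1.10, 95% interval -1.89 to -0.32, adjusted p = 0.0592), and passed without mock library 1 (log2 -1.67, adjusted p = 0.00143) or mock library 2 (log2 -0.54, adjusted p = 0.0365).

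Irf8 (ENSMUSG00000041515, chr8:120736358-120756694, plus strand), an interferon regulatory factor that directs progenitors to monocytes, had 6.43 and 4.64 RPKM in leukemia, 5.73 and 3.96 RPKM in preleukemia and 7.34 and 9.74 RPKM in mock. Mock lay above both other groups, which overlapped each other. No comparison passed: the log2 fold change was -0.71 in preleukemia against mock (95% interval -1.23 to -0.19, adjusted p = 0.0649), -0.55 in leukemia against mock (adjusted p = 0.110) and 0.16 in leukemia against preleukemia (adjusted p = 0.650). Preleukemia against mock passed without mock library 1 (adjusted p = 0.0379), after quantile normalization (adjusted p = 0.0464) and with voom (adjusted p = 0.0499), and was at -0.53 (adjusted p = 0.185) without mock library 2. Dendritic cell markers, genes of another lineage that Irf8 serves, summed to 22.6 and 26.3 RPKM in leukemia, 10.4 and 23.2 RPKM in preleukemia and 34.3 and 85.0 RPKM in mock. Most of this sum came from Cd74, H2-Aa, H2-Ab1 and Flt3. Siglech, Itgax and Xcr1 stayed at or below 1.68 RPKM and were not tested. Of 4 tested, 1 fell in leukemia against mock, Flt3, and 2 fell in preleukemia against mock, Flt3 and H2-Ab1. The part of dendritic cells in the Irf8 levels was not tested.

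In 20 of 24 pairs of libraries the 95% Poisson intervals of a factor's reads did not overlap, 7 of 8 in leukemia, 6 in preleukemia and 7 in mock. The ratio within a pair ran from 1.05 to 3.01 in leukemia, from 1.07 to 1.60 in preleukemia and from 1.12 to 2.28 in mock. The read numbers behind the values ran between 95, for Cebpe in mock library 2, and 4486, for Spi1 in preleukemia library 2.

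Among the C/EBP factors, which bind one motif as dimers, the summed level of Cebpa, Cebpb, Cebpd, Cebpe and Cebpg was 109 and 127 RPKM in leukemia, 170 and 219 RPKM in preleukemia and 111 and 108 RPKM in mock. Cebpa held 60.1% and 45.5% of the sum in leukemia, 40.3% and 33.2% in preleukemia and 52.7% and 36.6% in mock. Cebpe held 7.18% and 18.5% in leukemia, 21.3% and 26.4% in preleukemia and 7.79% and 3.51% in mock. The Cebpe share was larger in each preleukemia library than in any other, and the Cebpa share of preleukemia overlapped that of mock.

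**Figure D3:**
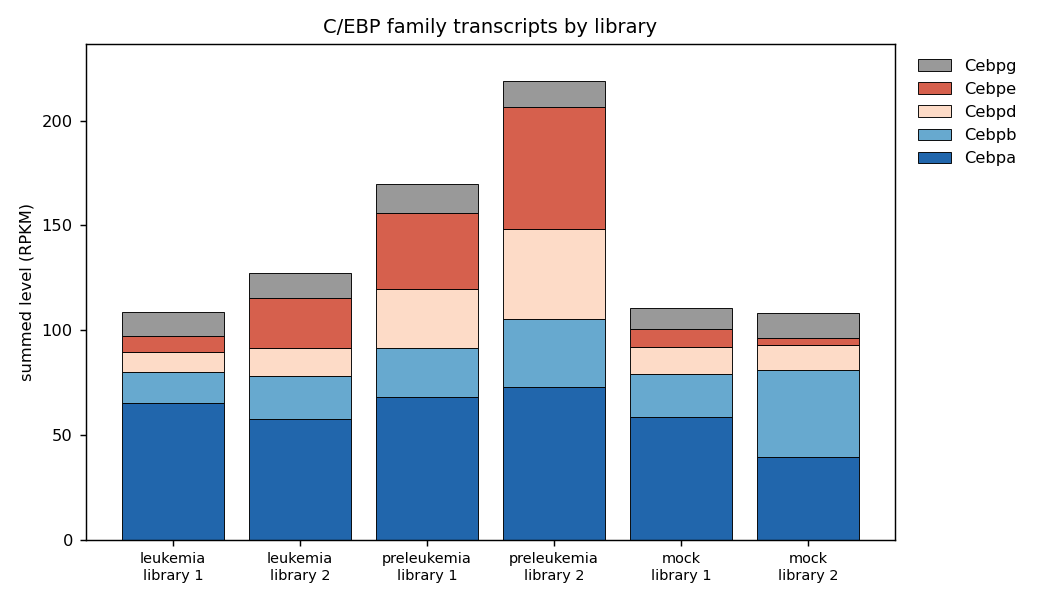
Stacked RPKM of Cebpa, Cebpb, Cebpd, Cebpe and Cebpg in each library. The summed level was highest in preleukemia, at 170 and 219 RPKM, where Cebpe and Cebpd took larger parts.

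Ratios of 2 factors within a library do not depend on library scaling. The Gfi1 to Irf8 ratio was 1.49 and 3.03 in leukemia, 6.28 and 12.6 in preleukemia and 2.03 and 0.922 in mock. Preleukemia stood above the others, and leukemia overlapped mock. The Cebpe to Cebpa ratio was 0.120 and 0.406 in leukemia, 0.529 and 0.795 in preleukemia and 0.148 and 0.096 in mock, with the same order. The Klf4 to Irf8 ratio was 0.369 and 0.536 in leukemia, 1.32 and 2.12 in preleukemia and 1.64 and 2.83 in mock, so leukemia was lowest and the other groups overlapped. The Cebpa to Spi1 ratio lay between 0.874 and 1.62 in all 6 libraries. No test was made of the ratios.

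**Figure D4:**
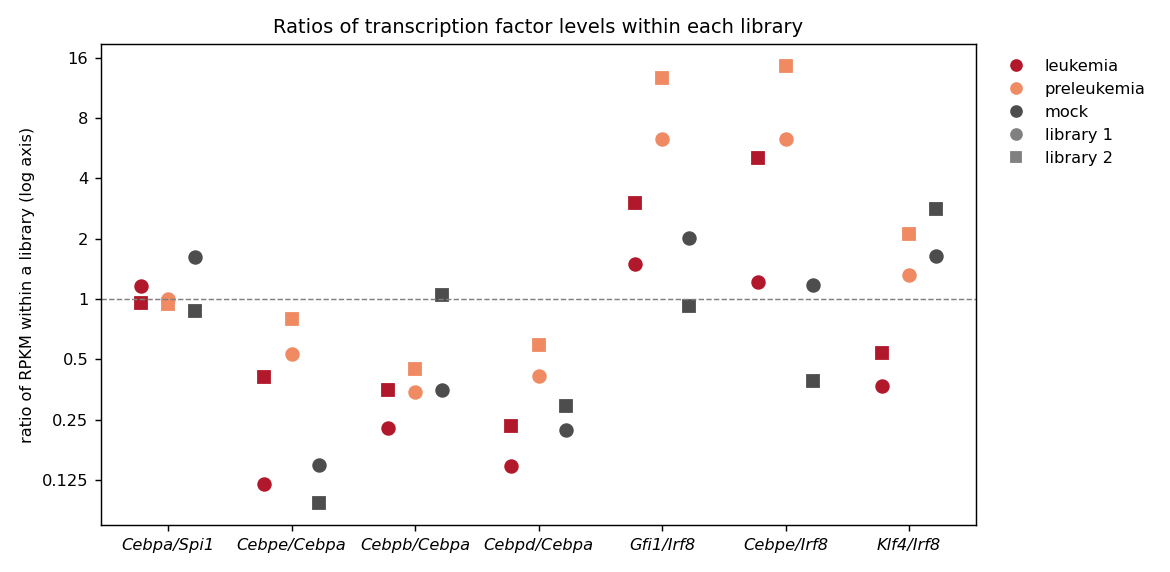
RPKM ratio of 2 factors within each library on a log axis, for 7 pairs. The Gfi1 to Irf8 ratio was 6.28 and 12.6 in preleukemia, above the leukemia and mock values.

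In order of level, Spi1 and Cebpa were the first 2 of the 8 in every leukemia and preleukemia library and in mock library 1, while in mock library 2 Cebpb stood between them. Klf4 was the lowest in both leukemia libraries, Irf8 in both preleukemia libraries and mock library 1, and Cebpe in mock library 2. Among all tested genes, mean Cebpe lay at the 73.3rd percentile in leukemia, the 92.4th in preleukemia and the 41.7th in mock. Klf4 lay at the 18.8th, 47.8th and 78.3rd percentile in leukemia, preleukemia and mock.

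The genes whose levels followed each factor most closely over the 6 libraries were picked from 846 candidates by Pearson correlation of log2 levels, as a description. For Gfi1 these were Daglb, a lipase (r = 0.999), and G6pdx (r = 0.996). For Spi1 they were Vasp, an actin regulator (r = 0.998), and Adam11 (r = 0.987). For Cebpd they were Rab3d, a vesicle GTPase (r = 0.995), and Med21 (r = 0.994), and for Cebpe they were Chst12 (r = 0.994) and Ccdc125 (r = 0.987). Klf4 was nearest to Psap, the saposin precursor of lysosomes (r = 0.991), and to Tapt1 (r = 0.990). Irf8 was nearest to Klf11 (r = 0.974) and Zeb2 (r = 0.965). For Cebpa the nearest were Dgcr2 (r = 0.983) and Cpne1 (r = 0.980), and Cebpb had weaker neighbours, Cytip at 0.916 and Bag3 at 0.907.

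Genes linked to these factors were read as lists chosen with earlier results known. Of 8 secondary and tertiary granule genes, which in mice need Cebpe, 6 rose and none fell in preleukemia against mock (median log2 fold change 5.13), 2 rose in leukemia against mock (median 0.95) and 5 fell in leukemia against preleukemia (median -3.22). Ltf, lactoferrin, had 0.208 and 1.43 RPKM in leukemia, 17.4 and 166 RPKM in preleukemia and 0.135 and 0.559 RPKM in mock. Ngp, neutrophilic granule protein, had 2.46 and 25.8 RPKM in leukemia, 117 and 643 RPKM in preleukemia and 0.304 and 1.75 RPKM in mock. As for Cebpe, preleukemia library 2 was the higher of its pair and leukemia library 2 the higher of its own. The mock pair differed: Cebpe was higher in library 1 (8.63 against 3.80 RPKM), whereas Ltf and Ngp were higher in library 2. Without leukemia library 1, none of the list fell in leukemia against preleukemia, and 1 fell without preleukemia library 2; with voom 2 rose in preleukemia against mock and none in leukemia against mock. Chi3l3 has near-identical copies, so its value is uncertain.

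Of 12 granule and receptor genes of early progenitors, 8 rose and 2 fell in preleukemia against mock (median 1.06), 4 rose and 6 fell in leukemia against mock (median -0.52), and 1 rose and 7 fell in leukemia against preleukemia (median -1.23). Without preleukemia library 1, and likewise without preleukemia library 2, 5 rose and 1 fell in preleukemia against mock, and in leukemia against mock 2 rose and 3 fell without leukemia library 1, and 2 rose and 4 fell without leukemia library 2. Elane, the gene of neutrophil elastase, had 156 and 207 RPKM in leukemia, 972 and 1176 RPKM in preleukemia and 702 and 525 RPKM in mock. It rose in preleukemia against mock (log2 0.82, adjusted p = 0.0340) and fell in leukemia against mock (log2 -1.75, adjusted p = 0.00203). Lyz2, lysozyme, had 293 and 348 RPKM in leukemia, 1356 and 2024 RPKM in preleukemia and 58.0 and 77.0 RPKM in mock, and was higher than mock in both Evi1 groups. Csf3r, the receptor for G-CSF and a target of Cebpa, rose in preleukemia (log2 1.44, adjusted p = 0.00434) and in leukemia (log2 0.88, adjusted p = 0.0170), each against mock.

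Of 10 monocyte genes tested, 4 rose and 2 fell in preleukemia against mock, 2 rose and 3 fell in leukemia against mock, and 1 rose and 4 fell in leukemia against preleukemia, with medians of 0.15, 0.00 and 0.04. Ccr2, the chemokine receptor of monocytes, fell in both Evi1 groups, with 3.67 and 3.57 RPKM in leukemia, 3.33 and 3.22 RPKM in preleukemia and 11.8 and 12.01 RPKM in mock. F13a1, a coagulation factor subunit made by monocytes, rose in both, with log2 1.55 in leukemia (adjusted p = 0.00309) and 1.09 in preleukemia (adjusted p = 0.0135) against mock. Csf1r, the M-CSF receptor and a Spi1 target, had 27.1 and 20.4 RPKM in leukemia, 16.9 and 15.2 RPKM in preleukemia and 26.4 and 38.3 RPKM in mock. It fell in preleukemia against mock (log2 -0.94, adjusted p = 0.0220), and leukemia against preleukemia did not pass (log2 0.52, adjusted p = 0.122). Without preleukemia library 1 none of the list rose in preleukemia against mock, nor did any without preleukemia library 2, and in leukemia against preleukemia 1 to 2 fell without any 1 leukemia or preleukemia library. In leukemia against mock 5 fell without mock library 1.

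Of 9 genes that Gfi1 represses, none rose and 4 fell in preleukemia against mock (median -0.54), none rose and 3 fell in leukemia against mock (median -1.10), and 1 rose and 3 fell in leukemia against preleukemia (median -0.30). Egr1, an early growth response factor, had 41.0 and 60.7 RPKM in leukemia, 8.54 and 11.1 RPKM in preleukemia and 45.5 and 47.8 RPKM in mock, lowest where Gfi1 was highest. Hoxa9, a homeobox factor of stem cells, was listed at 0 in both leukemia libraries and had 2.09 and 3.12 RPKM in preleukemia and 7.44 and 5.82 RPKM in mock. In preleukemia against mock 1 of the list fell without preleukemia library 1 and 2 without preleukemia library 2, and in leukemia against mock 5 fell without mock library 1.

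Of 7 partners and regulators of C/EBP proteins, 4 fell and none rose in preleukemia against mock, 4 fell and none rose in leukemia against mock, and 1 fell in leukemia against preleukemia. Without leukemia library 1, leukemia library 2 or preleukemia library 1 only 1 fell in preleukemia against mock, and none without preleukemia library 2; in leukemia against mock 1 to 2 fell without any 1 leukemia or preleukemia library. Trib2, a pseudokinase that drives degradation of Cebpa, was listed at 0 in both leukemia libraries and had 0.937 and 0.377 RPKM in preleukemia and 8.04 and 4.09 RPKM in mock. Trib1, also on this list, had 13.9 and 11.8 RPKM in leukemia, 4.78 and 4.82 RPKM in preleukemia and 9.93 and 24.4 RPKM in mock. Trib1 fell in preleukemia against mock (log2 -1.52, adjusted p = 0.0278). Its leukemia levels did not pass against mock (log2 -0.27, adjusted p = 0.608) or preleukemia (log2 1.25, adjusted p = 0.0520). Atf4, a stress response factor that pairs with C/EBP proteins, fell in leukemia (log2 -0.81, adjusted p = 0.0241) and in preleukemia (log2 -0.72, adjusted p = 0.0427) against mock.

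Of 11 other Ets factors, 3 rose in leukemia against mock, 1 without leukemia library 1 or leukemia library 2 and 6 without mock library 2. Erg, a stem cell Ets factor, had 50.5 and 43.9 RPKM in leukemia, 28.01 and 28.3 RPKM in preleukemia and 21.01 and 19.7 RPKM in mock. Of 6 other interferon regulatory factors, 3 rose and 1 fell in preleukemia against mock, though none rose after quantile normalization or without any 1 leukemia or preleukemia library, and 1 rose without mock library 2. Of 11 other Kruppel-like factors, none rose and 3 fell in leukemia against mock; none fell without leukemia library 1 or leukemia library 2, 5 without mock library 1 and 1 without mock library 2. Of 14 other fate factors, 1 rose and 3 fell in preleukemia against mock, and 1 rose and 2 fell in leukemia against mock. Stat3 rose in leukemia (log2 0.84, adjusted p = 0.00682) and in preleukemia (log2 0.86, adjusted p = 0.00823) against mock. Zeb2 fell in both against mock, Egr1 and Runx1 fell in preleukemia, and Gata1 fell in leukemia. In leukemia against preleukemia 2 rose, Egr1 and Runx1, and none fell. Runx1 had 46.9 and 35.5 RPKM in leukemia, 18.8 and 17.6 RPKM in preleukemia and 25.04 and 32.4 RPKM in mock.

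**Figure D5:**
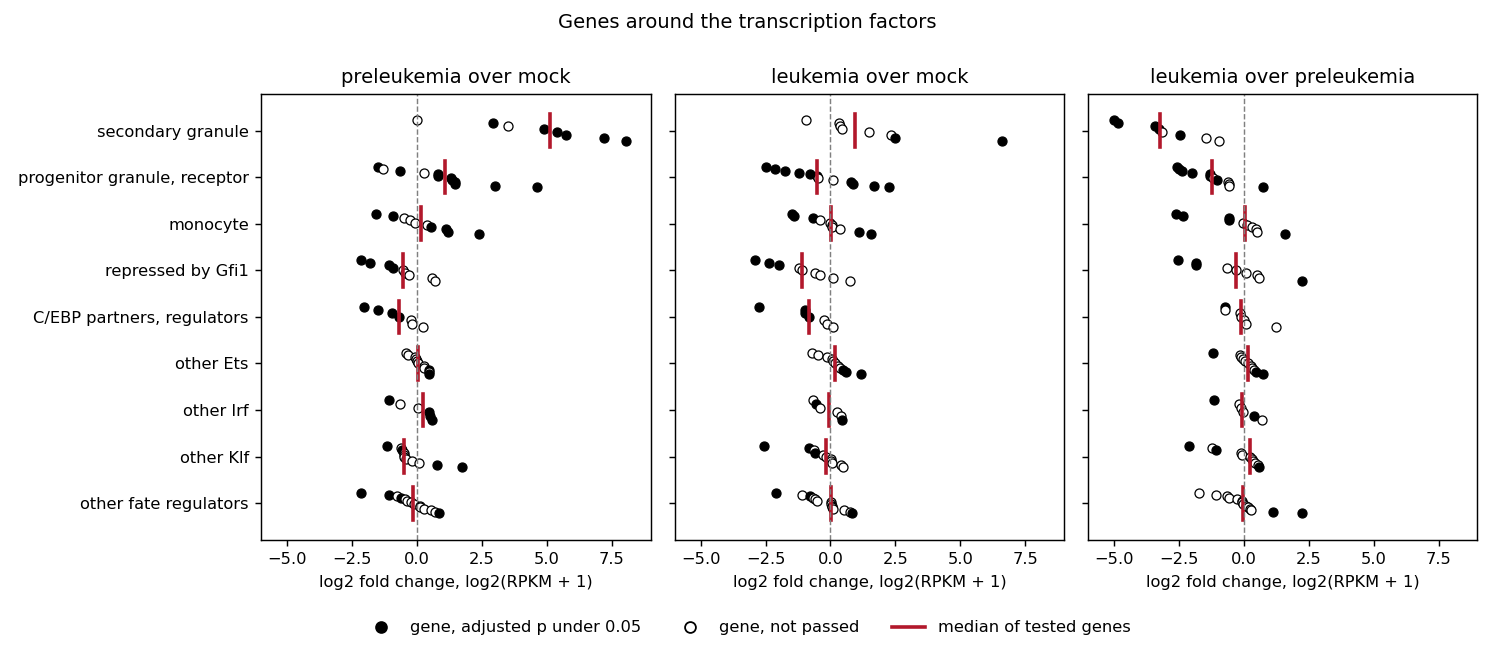
Log2 fold change of every tested gene of the 9 lists in the 3 comparisons, with the median of each list as a red bar. The secondary and tertiary granule genes lay at a median of 5.13 in preleukemia against mock and of -3.22 in leukemia against preleukemia.

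The sort took cells negative for lineage markers, a gate meant to remove maturing blood cells, and which markers it used is not stated in the labels. Summed markers of other cell types are given as measured in the sorted cells. Erythroid markers summed to 2.82 and 12.1 RPKM in leukemia, 148 and 90.0 RPKM in preleukemia and 255 and 104 RPKM in mock. The largest part in preleukemia and mock was Car1, at 86.2 and 48.6 RPKM and at 174 and 73.4 RPKM. Of the 7 erythroid genes tested, 6 fell and none rose in leukemia against mock. In preleukemia against mock none fell and 1 rose, Hba-a1, with 31.6 and 21.1 RPKM against 6.10 and 4.81 RPKM. Mast cell and basophil markers summed to 18.5 and 18.8 RPKM in leukemia, 26.0 and 23.0 RPKM in preleukemia and 106 and 76.3 RPKM in mock. Monocyte and macrophage markers summed to 508 and 527 RPKM in leukemia, 397 and 356 RPKM in preleukemia and 206 and 288 RPKM in mock. The largest part was F13a1, at 340 and 364 RPKM in leukemia, 264 and 248 RPKM in preleukemia and 95.3 and 150 RPKM in mock. Of the 6 tested, 2 rose and 1 fell in leukemia against mock, and 1 rose and 1 fell in preleukemia against mock. T and NK cell markers summed to 9.29 and 16.5 RPKM in leukemia, 69.9 and 69.6 RPKM in preleukemia and 89.2 and 48.2 RPKM in mock. Most of that was Nkg7, a granule gene of cytotoxic cells, at 6.83 and 14.6 RPKM in leukemia, 66.7 and 67.2 RPKM in preleukemia and 87.7 and 47.1 RPKM in mock, while Cd3e, a subunit of the T cell receptor complex, was at 0 in every library but preleukemia library 1. Megakaryocyte markers summed to 3.60 and 12.4 RPKM in leukemia, 66.3 and 49.1 RPKM in preleukemia and 32.4 and 32.8 RPKM in mock, and 5 of 6 fell in leukemia against preleukemia. B-lymphoid markers summed to 12.5 and 11.9 RPKM in leukemia, 17.9 and 19.6 RPKM in preleukemia and 41.3 and 43.7 RPKM in mock, and 5 of the 6 tested fell and 1 rose in each Evi1 group against mock. Stroma and endothelium markers stayed between 0.127 and 0.454 RPKM. The part of these cell types in the levels of the 8 factors was not tested.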

How the data were processed

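Messenger RNA of 6 libraries was read from the deposited table, which gives 1 RPKM value per gene and library. That these values are RPKM was inferred from the deposited values: for values under 20 reads, 64.1% to 65.7% were whole reads within 0.02 at exon lengths of GENCODE M21. Per the submitters' processing notes, CASAVA 1.8.2 and GRCm38 played a part that is not described. No aligner, counter or annotation is named (not given in the sources used here). The NEBNext Ultra RNA kit, per the labels' protocols, does not mark strand by its name.

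Groups came from the labels. Values were taken as log2(RPKM + 1), which understates changes of low genes, and genes at 1 RPKM or more in at least 2 libraries were tested (10958 genes). limma 3.58.1 in R 4.3.3 fitted the 3 group means over all 6 libraries with a trended empirical Bayes spread (3 residual and 3.70 prior degrees of freedom); tests were two-sided with Benjamini-Hochberg adjustment at 0.05 over all genes tested. Ratios in RPKM are of group means. Reads of each factor were recovered as the whole numbers that 1 gene length gives in all 6 libraries. Intervals on reads cover counting error only. The procedure was tested on simulated data. All 8 factors are named, with list genes having the smallest p or set beside a factor, and, for each factor, the 2 nearest genes by correlation. The factors and lists were chosen with earlier results of these data known. Other pseudocounts, filters, scalings, voom, a replicate block, a fit of 4 libraries and the omission of each library were tried. For voom, reads were worked out from GENCODE M21 exon lengths and not from the lengths that give whole reads. For Cebpd these lengths were 3746 and 1180 bases, so its voom reads were inflated, at 752 against 237 in leukemia library 1. Gene positions are from GENCODE M21 on GRCm38.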

Additional observations from a re-analysis of the deposited data

How the results depend on the processing

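Each factor and comparison was recomputed under 15 alternatives: of 360 values, 314 kept direction and side of the threshold, 23 no longer passed, 15 newly passed and 8 changed sign. Leaving out 1 library at a time, the genes called ranged from 520 (without preleukemia library 2) to 3873 (without mock library 1) in preleukemia against mock, from 1046 to 3848 in leukemia against mock and from 430 to 3449 in leukemia against preleukemia, against 2140, 2809 and 2006 with all libraries. The factors called then ranged from 0 to 7, from 1 to 3 and from 0 to 4. With only the 4 libraries compared, 1374 genes were called in preleukemia against mock and 3428 in leukemia against preleukemia, and 1 factor in leukemia against mock. With no filter on low values, 1302 genes were called in leukemia against preleukemia and 1 factor in leukemia against mock.

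Signs changed for Cebpb in preleukemia against mock, which lay between -0.57 (without mock library 1) and 0.41 (without mock library 2), and at 0.15 without preleukemia library 1, and for Cebpd in leukemia against mock, at 0.12 without leukemia library 1. Gfi1 in leukemia against mock lay between -0.33 (without mock library 2) and 0.34 (without mock library 1), was -0.25 without leukemia library 2 and -0.0035 with voom. Irf8 in leukemia against preleukemia lay between -0.056 (without preleukemia library 2) and 0.38 (without preleukemia library 1), and was -0.04 without leukemia library 1. None of these passed the test with all libraries, and the cause was not tested. Quantile normalization moved the median of all genes in leukemia against preleukemia by 0.12; relative to that median Cebpd was at -1.45, Gfi1 at -1.69 and Klf4 at -1.32.

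Same-numbered libraries correlated in their deviations at 0.116, 0.0125 and 0.179 in the 3 comparisons, so the numbers were not taken as pairs. With the replicate number as a block, 2118, 2932 and 2060 genes and 5, 3 and 4 factors were called. Klf4 then also passed in preleukemia against mock (adjusted p = 0.0425), as did Cebpb in leukemia against mock (adjusted p = 0.0219) and in leukemia against preleukemia (adjusted p = 0.0388). Reads of a factor ran from 95 to 4486 a library, and what depth limits was not tested beyond the counting intervals of these 8 factors.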
